A study of Homo sapiens with 12 samples.

Results

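Expression of 10 imprinted genes from 6 loci was followed in TC71 Ewing sarcoma cells, wild-type or with a knockout of ID2. The genes were DLK1, MEG3 and MEG8 of 14q32, H19 and IGF2 of 11p15, PEG10 and SGCE of 7q21, MEST of 7q32, PLAGL1 of 6q24 and PEG3 of 19q13. They were chosen from earlier values of these same libraries, so their values are given as a description and carry no test. The table of 21569 genes held rows for 9 of the 10, and 8 of these passed the filter on low counts among 17084 genes tested. PEG3 has no row and was not analysed here, and MEG8 had too few reads for the fit.

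TC71 is an established human Ewing sarcoma line, and all libraries came from it, grown in DMEM with 10% FBS. The wild-type group kept ID2. Clone 1 and clone 2 are separate ID2 knockout lines, each a single clone, and the rescue line was made from clone 2 and carries both the knockout and a rescue of ID2, by a construct that the labels do not describe. Each of the 4 groups had 3 libraries of polyadenylated RNA, with 19420408 to 29748084 counts each. ID2, an inhibitor of basic helix-loop-helix transcription factors, stood at 77.9 ± 0.657 CPM (counts per 1000000 scaled library counts, mean ± SD, n = 3) for wild-type, 18.1 ± 0.777 for clone 1, 50.9 ± 3.16 for clone 2 and 41.5 ± 0.537 for the libraries labelled rescue. ID2 RNA was thus lower in the rescue libraries than in clone 2, which goes against the label at the RNA level, and the group is called rescue here by its label alone. All 9 Ewing sarcoma markers examined had reads in every group, with summed levels of 848.6 to 1185.0 CPM over all libraries. One of them, CCK, was low, at 1.17 CPM for wild-type, 3.59 for clone 1, 3.17 for clone 2 and 0.644 for rescue. Of 8 blood, endothelial and epithelial markers, 3 had a row. PTPRC and CDH5 together stayed at or below 0.4 CPM in every library, whereas EPCAM, an epithelial adhesion molecule, stood at 0.836 CPM for wild-type, 18.7 for clone 1, 1.82 for clone 2 and 0.416 for rescue.

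Imprinted genes are expressed from the copy inherited from 1 parent, under the control of DNA methylation set in the germ line. They lie in clusters in which a maternally expressed noncoding RNA often neighbours paternally expressed protein genes. At 14q32, DLK1, a Notch-like transmembrane protein, is expressed from the paternal copy, and the noncoding RNAs MEG3 and MEG8 from the maternal copy. At 11p15 the growth factor IGF2 is paternally and the noncoding RNA H19 maternally expressed, with a CTCF-bound control region between them. Loss of IGF2 imprinting and altered 11p15 expression are known in several embryonal tumours.

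Sequences at transcript starts are given first for H19, MEG3 and PLAGL1, which of the 4 members with such a sequence had the larger differences between groups. Each is 300 bases, 250 before and 50 after a RefSeq start on GRCh38.p14, printed on the transcribed strand, and the fourth member with windows is MEST. Capitals mark matches on either strand to TGCCGC, the core bound by the imprint-maintaining protein ZFP57, to GGGGCCCC, a core bound by PLAGL1, or to TGACGTCA, the cyclic AMP response element, which was added to the search after the MEG3 sequence had been read. The motif GCCATNTT, bound by YY1, was also searched. TGCCGC occurred in 16.7% of 35116 windows, GGGGCCCC in 1.95%, TGACGTCA in 1.85% and GCCATNTT in 6.58%.
H19 (chr11:2001217-2001516, minus strand): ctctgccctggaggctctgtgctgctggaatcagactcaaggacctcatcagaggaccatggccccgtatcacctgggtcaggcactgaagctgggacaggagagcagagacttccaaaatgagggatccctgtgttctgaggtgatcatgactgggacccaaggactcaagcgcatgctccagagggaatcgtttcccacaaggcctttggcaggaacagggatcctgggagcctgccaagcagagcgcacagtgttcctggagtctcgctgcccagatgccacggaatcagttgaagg
MEG3 (chr14:100825858-100826157, plus strand): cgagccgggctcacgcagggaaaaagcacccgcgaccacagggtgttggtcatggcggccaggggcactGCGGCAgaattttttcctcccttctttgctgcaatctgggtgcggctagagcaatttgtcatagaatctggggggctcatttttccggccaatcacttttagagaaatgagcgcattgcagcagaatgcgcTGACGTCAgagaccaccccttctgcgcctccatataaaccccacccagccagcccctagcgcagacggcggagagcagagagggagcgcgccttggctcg
PLAGL1 (chr6:144008210-144008509, minus strand): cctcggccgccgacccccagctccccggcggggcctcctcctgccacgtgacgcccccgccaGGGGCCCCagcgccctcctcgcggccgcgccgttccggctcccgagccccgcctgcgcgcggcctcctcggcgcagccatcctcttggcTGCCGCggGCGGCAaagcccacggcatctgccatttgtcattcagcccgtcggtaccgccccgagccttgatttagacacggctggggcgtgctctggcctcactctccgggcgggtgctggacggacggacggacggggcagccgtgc
The H19 window held 6 CpG sites and none of the 4 motifs, against a median of 14 CpG sites over all windows. The MEG3 window, which lies inside the annotated gene, held 19 CpG sites, 1 TGCCGC and 1 TGACGTCA. The PLAGL1 window is 1 of 5 held for that gene. This one, at the start known to be methylated on the maternal copy, held 39 CpG sites, a number reached by 8.71% of all windows, with 2 TGCCGC and 1 GGGGCCCC. The other 4 PLAGL1 windows held neither of these motifs, 3 of them had 2 to 3 CpG sites and 1 had 31, and 1 held GCCATNTT. A match is a run of letters and does not show that the factor binds there.

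The H19 transcript also contains the hairpin of miR-675, and its 2 mature products are shown because H19 differed more between the clones than any other member in the fit. The seed, bases 2 to 8, is in capitals. These small RNAs were not measured by the polyadenylated libraries.
miR-675-5p (chr11:1996800-1996822, minus strand): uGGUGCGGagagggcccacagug
miR-675-3p (chr11:1996768-1996787, minus strand): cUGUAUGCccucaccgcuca
By position, 2 miRNA hairpins lie within MEG3, 13 within MEG8 and 1 within MEST.

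The members spanned a wide range of levels in wild-type cells. Per kb of exon, PEG10 stood at 54.7 ± 1.75 RPKM (CPM per kb of exon, SD, n = 3), PLAGL1 at 12.3 ± 0.271 and SGCE at 0.809 ± 0.0539. The others were low, with MEST at 0.13 ± 0.0235 RPKM, IGF2 at 0.128 ± 0.0204, DLK1 at 0.0892 ± 0.0255, H19 at 0.0798 ± 0.0551, MEG3 at 0.0442 ± 0.0134 and MEG8 at 0.00475 ± 0.00129. In CPM, PEG10 exceeded 97.6% of tested genes in wild-type and PLAGL1 87.0%, whereas DLK1 exceeded 12.2% and H19 4.49%. DLK1 and H19 had the widest range of rank between groups, with DLK1 above 52.0% of genes in clone 2 and H19 above 39.7% in clone 1. In bulk libraries, more RNA per cell and more cells with the RNA cannot be told apart.

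**Figure D1:**
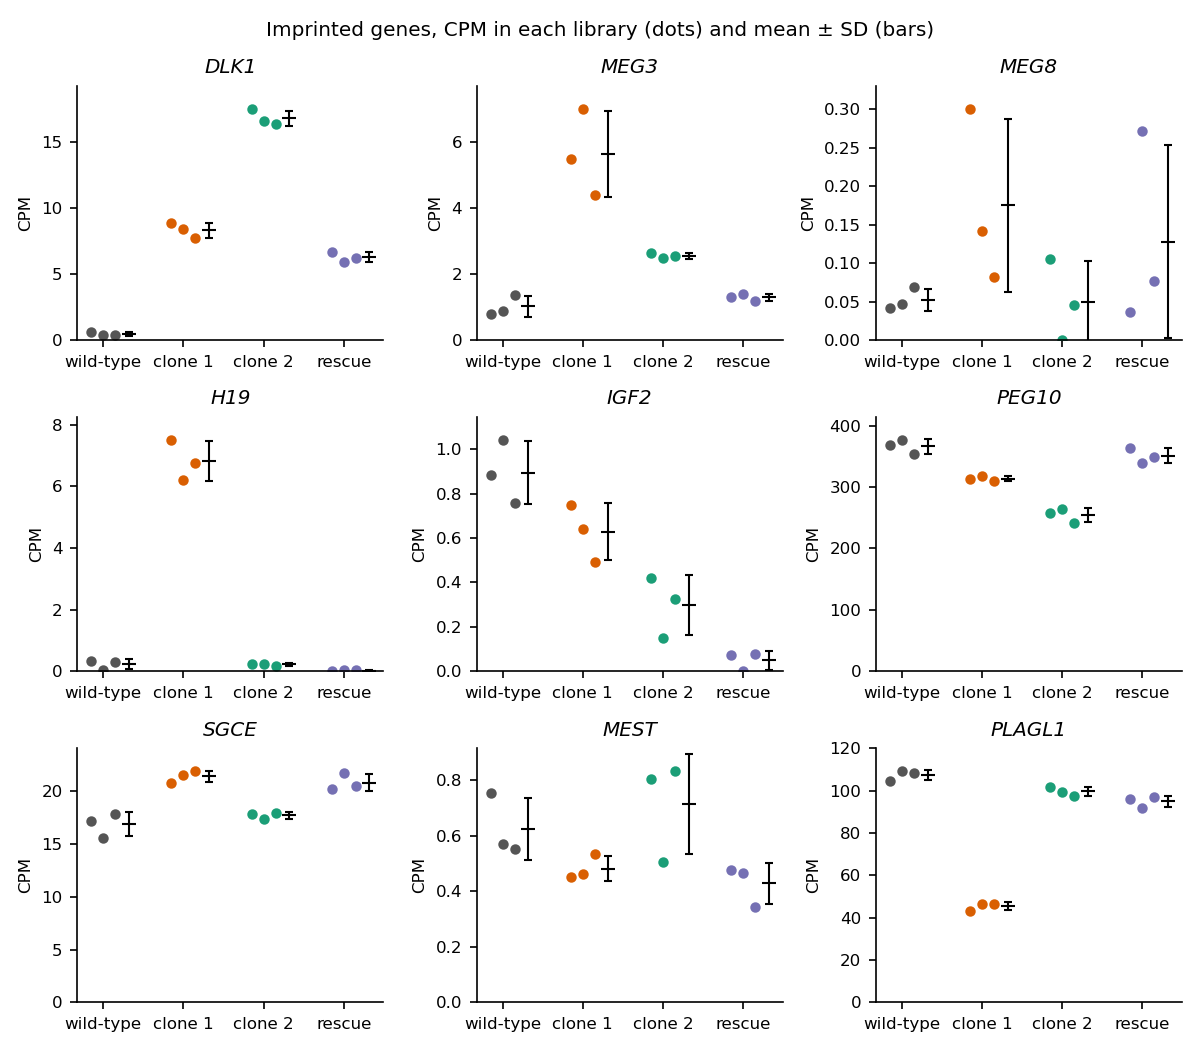
CPM (linear axis from 0, a separate scale per gene) of the 9 members with a row in each of the 12 libraries, as dots, with the group mean ± SD beside them. DLK1 is near 0 in wild-type and highest in clone 2, H19 stands at 6.22 to 7.5 CPM in clone 1 alone, and PLAGL1 is lower in clone 1 than in the other 3 groups.

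Between clone 1 and wild-type, the 3 libraries of each group did not overlap for 8 of the 8 members that passed the filter, 4 higher and 4 lower, while 65.2% of all tested genes did not overlap. Between clone 2 and wild-type, 5 of 8 did not overlap, 2 higher and 3 lower (64.4% of all genes). Between clone 2 and clone 1 it was 7 of 8, 2 higher and 5 lower (65.6%). Between rescue and clone 2 it was 8 of 8, 2 higher and 6 lower (47.6%), and between rescue and wild-type 6 of 8, 2 higher and 4 lower (61.9%). Since these values chose the members, nothing is read from the counts. The comparisons share wild-type or clone 2 libraries and are not independent of each other.

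DLK1 (ENSG00000185559, hg38 chr14:100725705-100738224, plus strand) was nearly silent in wild-type cells and present in both clones. Its CPM was 0.629, 0.379 and 0.414 in the wild-type libraries, from 35 reads in all. It was 8.85, 8.46 and 7.74 in clone 1 and 17.5, 16.6 and 16.4 in clone 2. The rescue libraries gave 6.72, 5.97 and 6.27. No 2 groups overlapped, and the order was clone 2, clone 1, rescue, wild-type. The log2 fold change against wild-type was 4.12 (SE 0.17) in clone 1, 5.14 (SE 0.15) in clone 2 and 3.73 (SE 0.18) in rescue. The rescue libraries stood at -1.42 (SE 0.085) on the log2 scale relative to clone 2 and remained above the wild-type libraries. Clone 2 relative to clone 1 stood at 1.02 (SE 0.083).

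MEG3, a noncoding RNA, is annotated on the same strand from 53.7 kb after the start of DLK1 (chr14:100779410-100861031). The start whose sequence is printed above lies inside that span. MEG3 was also higher in both clones, with the clones in the other order. Its CPM was 0.797, 0.9 and 1.38 for wild-type, 5.5, 7.0 and 4.4 for clone 1, 2.65, 2.48 and 2.55 for clone 2 and 1.32, 1.39 and 1.19 for rescue. Clone 1 was highest and clone 2 next, without overlap, and rescue and wild-type overlapped. The log2 fold change against wild-type was 2.43 (SE 0.19) in clone 1, 1.28 (SE 0.22) in clone 2 and 0.30 (SE 0.25) in rescue, the last moving to 0.62 without wild-type replicate 3. Clone 2 relative to clone 1 stood at -1.14 (SE 0.16), and rescue relative to clone 2 at -0.98 (SE 0.21). The ratio of DLK1 to MEG3 reads, summed over the libraries of a group, was 0.449 for wild-type, 1.46 for clone 1, 6.58 for clone 2 and 4.86 for rescue.

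MEG8 (chr14:100894770-101038859, plus strand), a noncoding RNA further along the cluster, had 1, 1 and 2 reads for wild-type, 6, 4 and 2 for clone 1, 3, 0 and 1 for clone 2 and 1, 7 and 2 for rescue. The clone 1 to wild-type ratio was 3.06, and its counting interval ran from 0.928 up to 13, so no difference was detectable at this depth. Further genes of the cluster outside the members were in the imprinted list. MEG9, a noncoding RNA at the far end, had 4 reads for wild-type, 18 for clone 1, 17 for clone 2 and 12 for rescue and was not tested. DIO3, the thyroid hormone-inactivating deiodinase, had 36 reads in wild-type, 11 in clone 1 and 12 in clone 2. Its log2 fold change against wild-type was -1.66 (SE 0.48) in clone 1 and -1.48 (SE 0.47) in clone 2. DIO3 passed the count filter only through wild-type, so these values are a description and carry no test.

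Of 5 tested neighbours within 500 kb of the 14q32 members, 1 rose and 3 fell in clone 1, and 1 rose and 3 fell in clone 2, where 30.8% and 30.7% of all tested genes rose and fell in clone 1 and 31.5% and 30.6% in clone 2. BEGAIN, a postsynaptic density protein gene 138.3 kb before DLK1, rose in clone 2 (log2 fold change 0.79, SE 0.14, edgeR adjusted p = 5.7e-06) and stood at -0.08 (SE 0.16, edgeR adjusted p = 0.669) in clone 1. WARS1, the tryptophanyl-tRNA synthetase, fell in both clones (-0.4 and -0.43). Genes nearer to DLK1 and MEG3 had too few reads to be tested, and 2 of them were picked out after their values were seen. ENSG00000258717, 45.8 kb before DLK1, had 2 reads for wild-type, 20 for clone 1, 21 for clone 2 and 29 for rescue. MIR493HG, a miRNA host gene that starts within the annotated MEG3 gene, 56.9 kb past its start, had 8, 24, 18 and 16 reads in the same order. The median tested gene of chromosome 14 stood between -0.03 and 0.04 in every comparison.

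**Figure D2:**
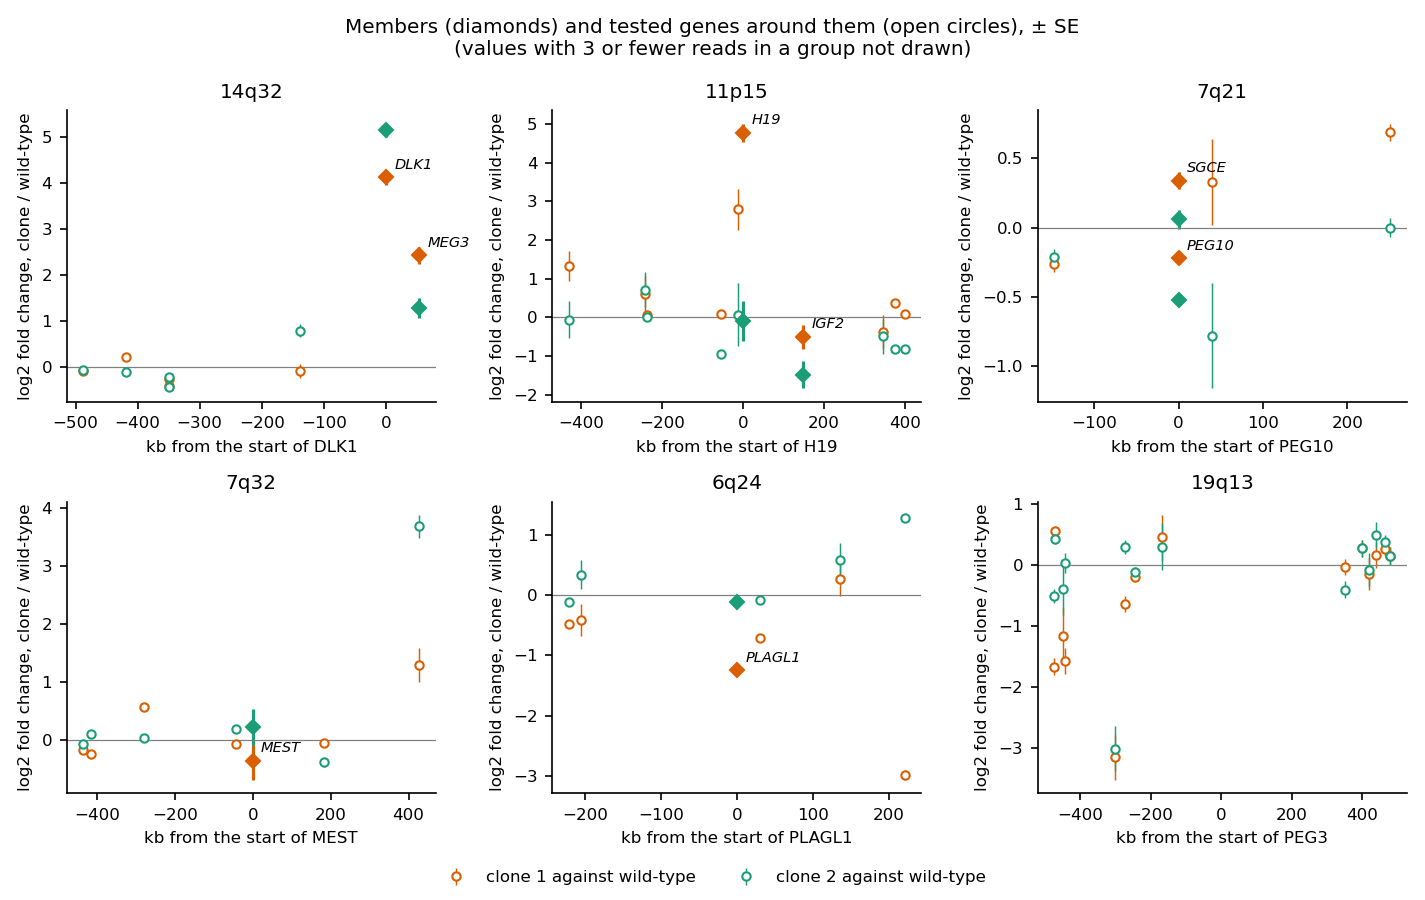
Log2 fold change against wild-type (± SE) of members, as diamonds, and of tested genes around them, as open circles, against the distance in kb from the start of a member, for clone 1 and clone 2 at the 6 loci. DLK1 stands at 4.12 in clone 1 and 5.14 in clone 2, H19 at 4.77 in clone 1 and -0.09 in clone 2, and MRPL23-AS1, 11.6 kb from H19, at 2.8 in clone 1 and 0.07 in clone 2.

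H19 (chr11:1995176-2001470, minus strand) was the member with the sharpest difference between the clones. Its CPM was 0.336, 0.0474 and 0.31 for wild-type, 7.5, 6.22 and 6.75 for clone 1, 0.244, 0.253 and 0.185 for clone 2 and 0, 0.0387 and 0.0382 for rescue. Clone 1 stood apart from every other group, wild-type and clone 2 overlapped, and rescue was lowest. H19 passed the count filter only through its clone 1 libraries. Relative to wild-type, clone 1 stood at 4.77 (SE 0.24) on the log2 scale and clone 2 at -0.09 (SE 0.51), and clone 2 relative to clone 1 at -4.86 (SE 0.25). Rescue had 2 reads against 16 in clone 2, and the ratio of 0.11 had a counting interval from 0.0123 up to 0.47. EPCAM, which is also highest in clone 1, rose there by 4.5 (SE 0.13, edgeR adjusted p = 1.85e-28). The other markers of other cell types with a row, PTPRC and CDH5, together summed to 0.213 to 0.4 CPM in the clone 1 libraries. The other epithelial marker examined, KRT19, had no row. The part of other cell types in the clone 1 levels of H19 and of the other members was not tested.

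MRPL23-AS1, a noncoding RNA on the same strand that starts 5.26 kb past the annotated end of H19, was also highest in clone 1. It overlaps the end of MRPL23 on the other strand, where the reads of both cannot be told apart. It had 8 reads for wild-type, 57 for clone 1, 8 for clone 2 and 2 for rescue. Its log2 fold change against wild-type was 2.8 (SE 0.53) in clone 1 and 0.07 (SE 0.81) in clone 2. Clone 2 relative to clone 1 stood at -2.74 (SE 0.53). MRPL23-AS1 passed the count filter only through its clone 1 libraries, so these values are a description and carry no test.

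IGF2 (chr11:2129112-2149603, minus strand), 148.1 kb from H19, stood below wild-type in clone 2 and was lowest in the rescue libraries. Its CPM was 0.881, 1.04 and 0.758 for wild-type, 0.75, 0.64 and 0.494 for clone 1, 0.419, 0.152 and 0.324 for clone 2 and 0.0734, 0 and 0.0765 for rescue. No 2 groups overlapped, but the lowest wild-type library and the highest of clone 1 were 0.758 and 0.75 CPM. The clone 1 to wild-type ratio of reads was 0.707, and its counting interval of 0.472 up to 1.05 includes no change. The log2 fold change against wild-type was -0.5 (SE 0.31) in clone 1, -1.48 (SE 0.36) in clone 2 and -4.0 (SE 0.52) in rescue, from 65, 45, 22 and 4 reads in the 4 groups, wild-type first. Clone 2 relative to clone 1 stood at -0.98 (SE 0.39), and rescue relative to clone 2 at -2.52 (SE 0.66). Reads of IGF2 and of its antisense and readthrough transcripts cannot be told apart here. The median tested gene of chromosome 11 stood at -0.6 in clone 2 and -0.02 in clone 1, and once it was subtracted IGF2 stood at -0.88 in clone 2. The part of this shift in the IGF2 result was not tested. The ratio of H19 to IGF2 reads was 0.277 in wild-type, 10.9 in clone 1 and 0.727 in clone 2.

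Of 8 tested neighbours at 11p15, MRPL23-AS1 included, 3 rose and 0 fell in clone 1, and 0 rose and 3 fell in clone 2 by edgeR. Over all tested genes, 30.8% rose and 30.7% fell in clone 1, and 31.5% and 30.6% in clone 2. MRPL23-AS1 and another of the 3 that rose passed the count filter only through clone 1, so no result is read from their rise. Both counts of 0 were also 0 at an unadjusted p under 0.05, with DESeq2 and with limma-voom. Over all of chromosome 11, the median of -0.6 in clone 2 came with 88.9% of tested genes below 0, and its part in the changes of 11p15 genes was not tested. MRPL23, a mitochondrial ribosomal protein gene, fell in clone 2 (-0.95, SE 0.053, edgeR adjusted p = 7.87e-19). CD81, a tetraspanin, rose in clone 1 (0.36, SE 0.036, edgeR adjusted p = 2.03e-11) and fell in clone 2 (-0.81, SE 0.038, edgeR adjusted p = 3.8e-21). Of the imprinted 11p15 genes outside the members, CDKN1C, a cyclin-dependent kinase inhibitor, had 33 reads in wild-type, 13 in clone 1 and 3 in clone 2. CDKN1C passed the count filter only through wild-type, so its log2 fold change of -1.28 (SE 0.48) in clone 1 carries no test. PHLDA2, a pleckstrin-homology protein of placental growth, fell in clone 1 (-1.02, SE 0.15, edgeR adjusted p = 1.74e-07) and did not pass in clone 2 (-0.22). KCNQ1OT1, the paternally expressed antisense RNA of the neighbouring imprinting domain, fell in clone 2 (-1.18, SE 0.32, edgeR adjusted p = 0.00149) and did not pass in clone 1 (-0.22). OSBPL5, an oxysterol-binding protein gene, rose in clone 1 (1.79, SE 0.13, edgeR adjusted p = 9.16e-16), and SLC22A18, a transporter gene, rose in clone 2 (1.84, SE 0.24, edgeR adjusted p = 1.75e-08).

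Of 6 tested genes for IGF2 receptors and IGF2 mRNA-binding proteins, 2 rose and 4 fell in clone 1, and 1 rose and 3 fell in clone 2. The shares over all tested genes were 30.8% and 30.7% in clone 1, and 31.5% and 30.6% in clone 2. INSR, the insulin receptor, rose in clone 1 (1.11, SE 0.052, edgeR adjusted p = 1.31e-21) and clone 2 (0.43, SE 0.056, edgeR adjusted p = 1.01e-08). IGF1R, through which IGF2 signals, rose in clone 1 (0.36) and fell in clone 2 (-0.16). IGF2BP3, which binds IGF2 mRNA, fell in both (-0.47 and -0.23).

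**Figure D3:**
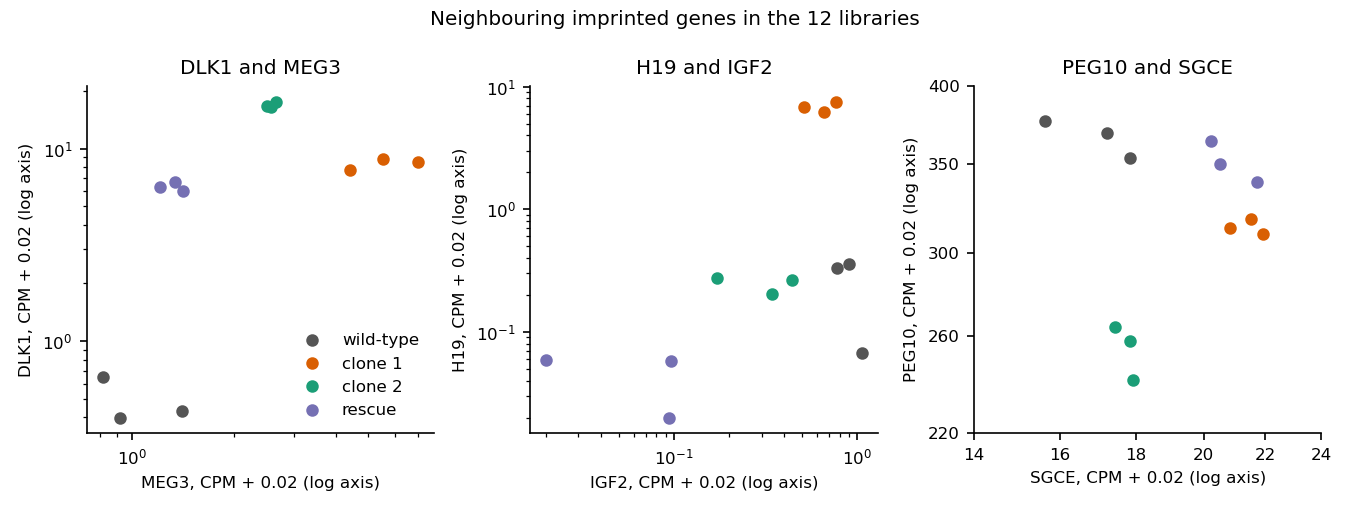
CPM plus 0.02 (log axes) of 3 pairs of neighbouring imprinted genes in each library, DLK1 against MEG3, H19 against IGF2 and PEG10 against SGCE, coloured by group. The 4 groups form separate clusters in the DLK1 panel, and clone 1 stands above the others in H19.

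PEG10 (chr7:94656325-94669695, plus strand), a gene derived from a retrotransposon gag and expressed from the paternal copy, was the most abundant member. Its CPM was 368.9, 376.3 and 353.4 for wild-type, 313.0, 318.1 and 310.3 for clone 1, 257.9, 264.3 and 241.1 for clone 2 and 364.0, 339.3 and 349.6 for rescue. Both clones lay below wild-type without overlap and rescue overlapped wild-type. The log2 fold change against wild-type was -0.22 (SE 0.034) in clone 1, -0.52 (SE 0.035) in clone 2 and -0.06 (SE 0.034) in rescue, and rescue stood above clone 2 by 0.46 (SE 0.034). Clone 2 relative to clone 1 stood at -0.3 (SE 0.035). Among 11 tested gag-derived genes, 3 rose and 6 fell in clone 1, and 2 rose and 6 fell in clone 2. The shares over all tested genes were 30.8% and 30.7% in clone 1, and 31.5% and 30.6% in clone 2. RTL6 fell in clone 1 (-0.95, SE 0.043, edgeR adjusted p = 3.72e-22) and clone 2 (-0.46, SE 0.041, edgeR adjusted p = 7.68e-13).

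SGCE (chr7:94524204-94656572, minus strand), the epsilon-sarcoglycan gene, is read head to head with PEG10, with annotated starts 247 bases apart, and did not share its order. Its CPM was 17.2, 15.6 and 17.8 for wild-type, 20.8, 21.5 and 21.9 for clone 1, 17.8, 17.4 and 17.9 for clone 2 and 20.2, 21.7 and 20.5 for rescue. Clone 1 and rescue were above wild-type, by 0.34 (SE 0.063) and by 0.29 (SE 0.063) on the log2 scale, whereas clone 2 overlapped wild-type at 0.06 (SE 0.066). Clone 2 relative to clone 1 stood at -0.28 (SE 0.063), and rescue relative to clone 2 at 0.23 (SE 0.063). The PEG10 to SGCE read ratio was 21.5 for wild-type, 14.6 for clone 1, 14.4 for clone 2 and 16.9 for rescue. Of 3 tested genes for sarcoglycans and their partners, SGCB, beta-sarcoglycan, fell in clone 1 (-0.26, SE 0.054, edgeR adjusted p = 5.46e-05), and DAG1, dystroglycan, rose in clone 1 (0.13) and fell in clone 2 (-0.46), and SSPN, sarcospan, passed in neither. Of 3 tested neighbours of the locus, PPP1R9A, itself an imprinted gene, rose in clone 1 (0.69, SE 0.062, edgeR adjusted p = 1.25e-12) and stood at -0.0 in clone 2 (edgeR adjusted p = 0.975).

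MEST (chr7:130486171-130506465, plus strand), a paternally expressed hydrolase-like protein, was low in every group. Its CPM was 0.755, 0.569 and 0.552 for wild-type, 0.45, 0.462 and 0.535 for clone 1, 0.803, 0.506 and 0.833 for clone 2 and 0.477, 0.465 and 0.344 for rescue. The log2 fold change against wild-type was -0.36 (SE 0.33) in clone 1, 0.22 (SE 0.31) in clone 2 and -0.53 (SE 0.33) in rescue. Clone 2 overlapped wild-type and clone 1, and each library held 9 to 23 reads.

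PLAGL1 (chr6:143940300-144064599, minus strand), a zinc-finger transcription factor, was lowest in clone 1. Its CPM was 104.7, 109.3 and 108.2 for wild-type, 43.2, 46.4 and 46.6 for clone 1, 102.0, 99.4 and 97.6 for clone 2 and 96.2, 92.1 and 97.1 for rescue. Clone 1 did not overlap any group and stood at a log2 fold change of -1.24 (SE 0.041), while clone 2 stood at -0.11 (SE 0.038), with the chromosome 6 median at -0.21 and -0.11. Rescue stood at -0.17 (SE 0.037) relative to wild-type and at -0.07 (SE 0.038) relative to clone 2, and clone 2 at 1.13 (SE 0.041) relative to clone 1. Of 5 tested neighbours at 6q24, 0 rose and 3 fell in clone 1, and 1 rose and 1 fell in clone 2 by edgeR. The 0 was also 0 at an unadjusted p under 0.05, with DESeq2 and with limma-voom. Over all tested genes, 30.8% rose and 30.7% fell in clone 1, and 31.5% and 30.6% in clone 2. SF3B5, a spliceosome subunit gene 31.0 kb from PLAGL1, fell in clone 1 (-0.71, SE 0.039, edgeR adjusted p = 2.78e-19), and UTRN, the utrophin gene 221.1 kb away, fell in clone 1 (-2.99, SE 0.079, edgeR adjusted p = 5.37e-30) and rose in clone 2 (1.29, SE 0.048, edgeR adjusted p = 2.02e-24). The PLAGL1 relatives PLAG1 and PLAGL2 fell in clone 1 (-0.37 and -0.24). In clone 2, PLAGL2 fell (-0.28) and PLAG1 did not pass (-0.09, edgeR adjusted p = 0.0869).

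PEG3 at 19q13 was not analysed here, but of 15 tested genes within 500 kb of it, 1 rose and 7 fell in clone 1, and 4 rose and 4 fell in clone 2. Over all tested genes, 30.8% rose and 30.7% fell in clone 1, and 31.5% and 30.6% in clone 2. The nearest named ones did not move alike. ZNF71, 245.5 kb away, stood at -0.2 (SE 0.078) in clone 1 and -0.11 (SE 0.077) in clone 2. ZNF470, 273.2 kb away, stood at -0.64 (SE 0.13) and 0.29 (SE 0.12), and ZNF264, 350.8 kb away, at -0.03 (SE 0.13) and -0.41 (SE 0.14). ZFP28, a zinc-finger gene 301.8 kb away, stood at -3.16 (SE 0.37) and -3.02 (SE 0.37), from 122 reads in wild-type to 13 and 14. ZFP28 and ZNF667-AS1 passed the count filter only through wild-type. ZNF667-AS1 had 97 reads in wild-type, 2 in clone 1 and 2 in clone 2. Both are among the genes counted as lower in each clone. Their values carry no test, and no result is read from their fall.

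Across the 12 libraries, the genes of at least 1 CPM whose log2 CPM most resembled a member are given as a description, since the libraries share groups and depth. FAM238B followed DLK1 (Pearson r = 0.995 over 12 libraries), LINC01854 followed MEG3 (0.982), FATE1 followed H19 (0.996), SIN3A followed PEG10 (0.982), METTL25 followed SGCE (0.956) and TMEM170B followed PLAGL1 (0.997). Like H19, FATE1 had its highest level in clone 1, at 7.73 CPM against 0.248 in wild-type.

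Imprinted genes outside the members were tested in 30 of 60 cases, in both directions. In clone 1, 7 rose and 13 fell, when 30.8% and 30.7% of all tested genes rose and fell. In clone 2, 13 rose and 12 fell (31.5% and 30.6% of all genes). Those that fell in both clones include DIO3 and CDKN1C, which passed the count filter only through wild-type. In rescue against clone 2, 3 rose and 9 fell (19.3% and 19.9%). In rescue against wild-type, 9 rose and 12 fell (28.5% and 29.9%), and in clone 2 against clone 1, 11 rose and 8 fell (30.3% and 31.9%). ATP10A is among the genes that rose in clone 2 and rescue against wild-type, and in clone 2 against clone 1. It passed the count filter only through clone 2 and rescue libraries, which held 24 and 39 of its reads. The wild-type libraries held 1 read and those of clone 1 held 0, so no result is read from its rise. The list's median log2 fold change was -0.23 in clone 1 and 0.09 in clone 2, against 0.01 over all tested genes in each. ZDBF2, a zinc-finger gene of 2q33, fell in clone 1 (-2.33, SE 0.29, edgeR adjusted p = 4.81e-09), clone 2 (-1.9, SE 0.28, edgeR adjusted p = 1.24e-07) and rescue (-4.31, SE 0.38, edgeR adjusted p = 8.23e-13) against wild-type. Its rescue value rests on 8 reads against 156 in wild-type. The ratio of 0.0479 had a counting interval from 0.0203 up to 0.0967. GRB10, a growth-factor receptor adaptor, fell in clone 1 (-1.29), clone 2 (-0.88) and rescue (-0.74). ANO1, a calcium-activated chloride channel, rose in clone 1 (3.51, SE 0.25, edgeR adjusted p = 9.61e-16). TFPI2, a protease inhibitor, rose in clone 2 (1.93, SE 0.14, edgeR adjusted p = 1.14e-15). L3MBTL1, a chromatin-binding protein gene of chromosome 20, rose in clone 1 (0.88, SE 0.11, edgeR adjusted p = 2.71e-09) and clone 2 (0.91, SE 0.11, edgeR adjusted p = 1.49e-09), and GNAS-AS1, an antisense RNA of the GNAS locus on the same chromosome, rose in both as well (1.32 and 0.92). The median tested gene of chromosome 20 stood at 0.16 in clone 1 and 0.12 in clone 2. NAP1L5, a paternally expressed nucleosome assembly protein gene, fell in clone 2 (-0.92, SE 0.1, edgeR adjusted p = 2.2e-10).

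**Figure D4:**
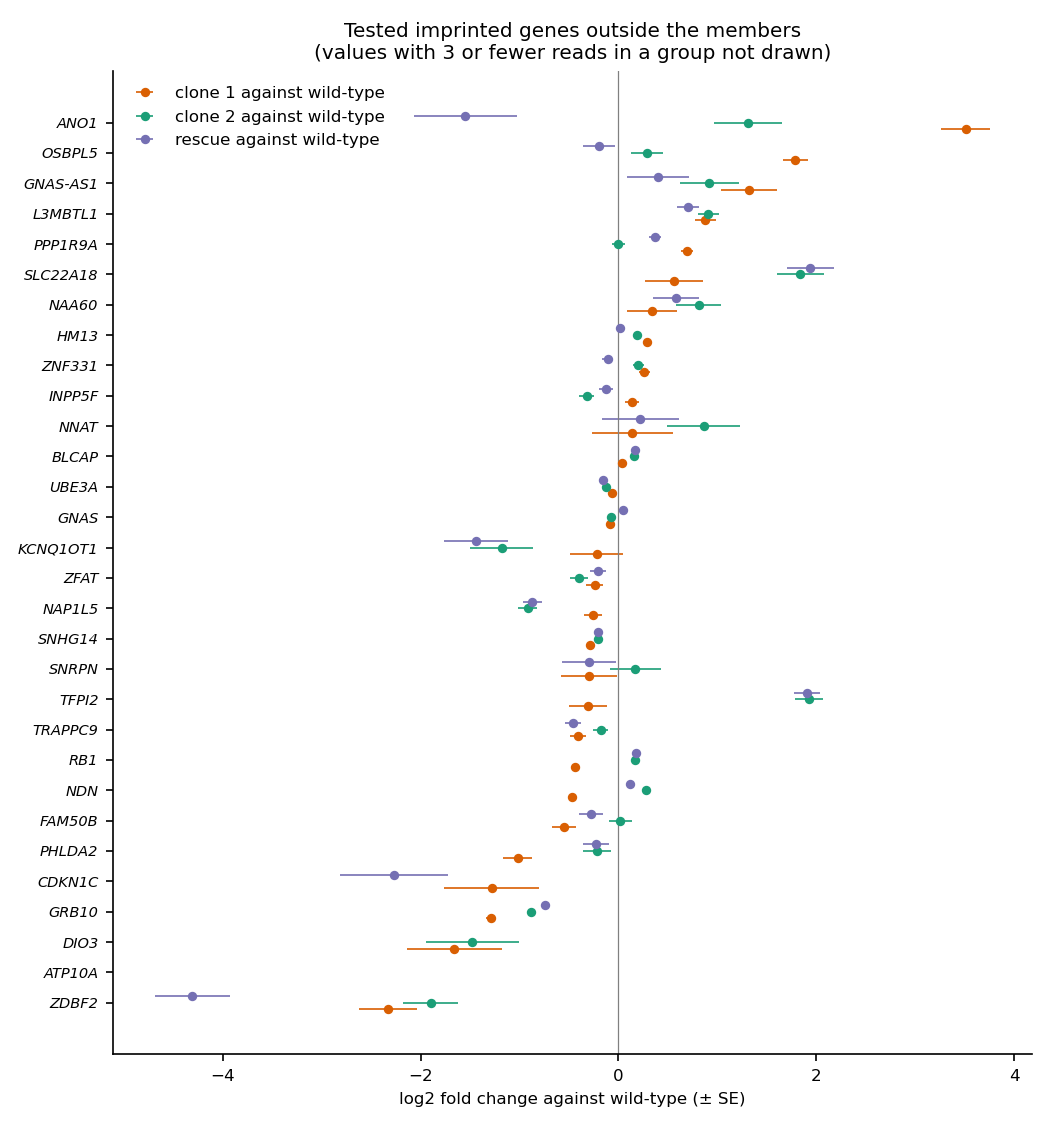
Log2 fold change against wild-type (± SE) of the tested imprinted genes outside the members in clone 1, clone 2 and rescue, ordered by clone 1. ANO1 and OSBPL5 lie to the right in clone 1 and ZDBF2 to the left in all 3 groups.

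RNAs of 11 genes whose proteins keep imprints in place formed a list, of which 8 were tested. In clone 1, 0 rose and 4 fell by edgeR, and 3 rose and 3 fell in clone 2. Over all tested genes, 30.8% rose and 30.7% fell in clone 1, and 31.5% and 30.6% in clone 2. At an unadjusted p under 0.05 in clone 1, 1 rose, and 0 rose with DESeq2 or limma-voom. ZNF445, which binds imprinted control regions, fell in clone 1 (-0.43, SE 0.049, edgeR adjusted p = 4.01e-10) and clone 2 (-0.67, SE 0.05, edgeR adjusted p = 5.33e-15). CTCF, the insulator protein at the H19 and IGF2 control region, fell in both (-0.22 and -0.27). DNMT1, the maintenance DNA methyltransferase, fell in clone 1 (-0.16) and rose in clone 2 (0.09). TRIM28, the co-repressor of ZNF445, did not pass in clone 1 (-0.07, edgeR adjusted p = 0.0842) or clone 2 (-0.0, edgeR adjusted p = 0.941).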

How the data were processed

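The deposited table holds raw read counts per Ensembl gene, 1 column per library, which the authors made from polyadenylated RNA libraries of a stranded kit, per the labels' protocols. The tools listed per the submitters' processing notes are FastQC, for read quality, and STAR, an aligner, with the build hg38. Which counter, strand setting and gene annotation were used is not given in the sources used here, so reads of IGF2 and its antisense and readthrough transcripts, or of SGCE and PEG10 where they overlap, cannot be told apart. Symbols matched 20717 of 21569 identifiers, and positions came from GENCODE release 29. Libraries held 19420408 to 29748084 counts, and 1 count is well under 1 CPM.

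Library sizes were scaled by TMM in edgeR 4.0.16 (R 4.3.3), and filterByExpr with a minimum count of 10 kept 17084 genes. A gene that is high in 1 group alone passes this filter, and the direction of its call against that group is then largely set. The quasi-likelihood test was fitted to all 12 libraries with 1 mean per group, and p-values were adjusted by the Benjamini-Hochberg method over all genes tested. The fit was tested on simulated data. CPM is counts per 1000000 of the scaled library size, and RPKM divides it by the annotated exon length in kb. Count-ratio intervals are exact 95% intervals and, like all intervals here, cover counting error only. No label says that the libraries of a group were grown separately, and their spread, which the p-values rest on, may be technical.

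The members and the gene lists were chosen with earlier results of these data known. Members therefore carry no test. Named beside them are ID2, up to 6 other imprinted genes per comparison by size of change at 1 CPM or more without overlap, every tested list gene of the 6 loci, up to 4 nearest tested neighbours per locus, pathway-list genes and the 2 genes most like each member. Same-numbered libraries of clone 1 and clone 2 deviated together (r = 0.121, 0.194 and 0.182), and those of wild-type and clone 2 gave r = -0.017, 0.176 and 0.245. No shared day or batch is labelled. The main fit took no pairing, so its comparisons, clone 2 against clone 1 included, leave any pairing out, and a replicate block was fitted as an alternative. Alternatives were other scalings (RLE, upper quartile), no filter and a 1 CPM filter, DESeq2 1.42.0, limma-voom (limma 3.58.1), fits of only the groups compared, a replicate block, each library left out, and members relative to their chromosome.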

Additional observations from a re-analysis of the deposited data

Results flagged for a closer look

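NDN and RB1, imprinted genes outside the 10 members, were singled out because the 2 knockout clones differed from wild-type in opposite directions and the clones differed from each other by edgeR's quasi-likelihood test. Since these calls chose the 2 genes, their values are a description and carry no test. Over all tested genes, 30.8% rose and 30.7% fell in clone 1, and 31.5% and 30.6% in clone 2. How many genes moved in opposite directions was not counted. NDN, which encodes necdin from the Prader-Willi locus, stood at a log2 fold change against wild-type of -0.47 (SE 0.043) in clone 1 and 0.28 (SE 0.04) in clone 2. Clone 2 minus clone 1 was 0.75. RB1, the retinoblastoma gene, stood at -0.44 (SE 0.04) in clone 1 and 0.17 (SE 0.039) in clone 2. Clone 2 minus clone 1 was 0.62. The median tested gene of chromosome 13, where RB1 lies, stood at a log2 fold change of -0.29 in clone 1 and 0.1 in clone 2. The part of this chromosome-wide shift in the RB1 result was not tested.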

How the results depend on the processing

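The counts of called genes, over all genes and over the imprinted list, stayed within 1.5 times their value under the 8 alternatives that give counts and when any 1 library was left out. Subtracting the chromosome median was applied to the members alone. In clone 1 against wild-type, leaving out a library gave 7 to 8 imprinted genes higher and 11 to 15 lower. With a replicate block, clone 1 against wild-type gave 7 higher and 13 lower in the list, and DLK1, MEG3 and H19 stood at log2 fold changes of 4.13, 2.4 and 4.79; the block changed no count by over 1.5 times.

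Among members, the difference of PLAGL1 in clone 2 against wild-type, -0.11 in the fit, was 0.0 once the chromosome 6 median was subtracted. IGF2 in clone 2 against wild-type moved from -1.48 to -0.88 once the chromosome 11 median was subtracted, and clone 2 against clone 1 from -0.98 to -0.42. MEG3 in rescue against wild-type moved from 0.30 to 0.62 without wild-type replicate 3. H19 in rescue against clone 2 ran from -2.41 to -3.28 over the fits that left out a rescue library, since it rests on 2 reads. Of the other imprinted genes, FAM50B, OSBPL5 and TRAPPC9 in rescue against clone 2 lost their call in some fits. FAM50B had an adjusted p of 0.102 with DESeq2 and 0.271 without clone 2 replicate 1, OSBPL5 0.0903 without rescue replicate 2, and TRAPPC9 0.0669 without clone 2 replicate 1. The cause was not tested. Depth limits MEG8, IGF2, and H19 and ZDBF2 in the rescue libraries, which rest on few reads.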
